A study of Gallus gallus with 28 samples.

Results

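CYP2C18, a liver cytochrome P450 (Gene ID 414833 in the platform annotation, also named CYP2C45), was followed in livers of chickens (Gallus gallus) from a lean and a fat line. Its members were the spots annotated with that symbol: 9 of 1728 spots, at 3 of 576 printed positions, making 1 of 142 named genes. The gene was chosen by measured values of this series: among named clones its fat-against-lean comparison had the smallest p. That comparison is therefore given below as a description, with no test. The arrays were 2-colour cDNA arrays, on which each sample competes with a reference for every printed clone. Pools 1 to 5 held liver RNA of the lean line and pools 6 to 10 that of the fat line, with 4 chickens in a pool. Pools 3 and 8 had 2 arrays and every other pool 3. Samples carried Cy5 and a common reference of all 10 pools carried Cy3. The labels give no treatment, age, sex or diet.

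Cytochromes P450 are haem enzymes of the endoplasmic reticulum that insert an oxygen atom into their substrates, with electrons passed on from a reductase. Members of the CYP2C subfamily oxidise drugs, other foreign compounds, fatty acids and steroids, and liver is their main site. The chicken enzyme, under the name CYP2C45, is known as a P450 that drugs such as phenobarbital induce through a nuclear receptor in chicken hepatoma cells. The current chicken gene table holds the symbol CYP2C18 for this gene and lists the same word as an older name of CYP2C23b (Gene ID 414841). The spots carried the Gene ID of the first, and so the gene was taken by its ID. Whether the printed cDNAs also bind transcripts of related P450 genes was not tested.

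A cDNA called here the first was printed at 2 positions, in block 1 (column 5, rows 3, 6 and 9) and in block 14 (column 2, rows 3, 6 and 9). The second cDNA had another accession and was printed in block 14 (column 8, rows 2, 5 and 8). The 3 positions thus share a gene, pairs of them share a cDNA or a block, and none of them is an independent replicate of a condition. Values were deposited for 85.3% of the CYP2C18 spots over all 28 arrays, against 36.7% of all spots. Filling was alike in the lines, at 86.5% of 126 spot values in the lean line and 84.1% of 126 in the fat line. Within a position the replicate spots of an array had a median SD of 0.22, 0.19 and 0.19 on the log2 scale in the order above, close to the 0.19 of all positions.

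CYP2C18 stood lower in the fat line at each of its positions. In the average of the 3 positions, called the gene average, lean pools had a log2 ratio of 0.35 ± 0.16 (SD, n = 5) and fat pools one of -0.96 ± 0.84 (SD, n = 5). The difference was -1.30 with a standard error of 0.38, a 2.47-fold higher ratio in the lean line. The direction of the deposited ratio is not stated and was taken as likely sample over reference, since the labels put the liver sample in channel 1 and the reference in channel 2. Should the ratio run the other way, the direction of each line and pool difference would turn, while the comparisons of spread and the signs of r between clones would not. A reference made of all pools puts the mean linear ratio of a gene near 1, and over the 10 pools that of the gene average was 0.932 as deposited and 1.51 with the sign turned.

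In the lean line the first cDNA in block 1 read 0.87, 0.59, 0.09, 0.44 and 0.01 in pools 1 to 5. In the fat line it read -0.28, -0.48, -0.73, -2.06 and -1.95 in pools 6 to 10. All fat values were lower than any lean value, and the pair of pools 9 and 10 lay far below the rest. The means of 0.40 ± 0.35 and -1.10 ± 0.84 (SD, n = 5 each) differed by -1.50 (standard error 0.37).

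The same cDNA in block 14 read 0.27, -0.01, -0.52, 0.23 and 0.29 in lean pools 1 to 5. In fat pools 6 to 10 it read -0.13, -0.33, -0.66, -2.08 and -1.66. Here the lines overlapped: lean pool 3 lay below fat pools 6 and 7, and the other 3 fat pools lay below every lean pool. In pool 3 the position rested on 2 arrays that disagreed, at -1.47 and 0.44. Over clones other than CYP2C18 these arrays correlated at -0.0689, the lowest of the 26 pairs of arrays of a pool. The means of 0.05 ± 0.34 and -0.97 ± 0.85 (SD, n = 5 each) were -1.02 apart (standard error 0.37). Over clones the second array of pool 3 had an SD of 1.49 and the first one of 0.59. Without the second array, which left pool 3 at -1.47, the difference was -0.83. Leaving out the first array instead was not run.

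The second cDNA read 0.45, 0.74, 0.84, 0.60 and 0.35 in lean pools 1 to 5. It read -0.04, 0.01, -0.66, -1.995 and -1.30 in fat pools 6 to 10. Every lean pool was above every fat pool, and fat pools 6 and 7 were close to the reference level of 0. The means were 0.59 ± 0.20 and -0.80 ± 0.86 (SD, n = 5 each), and the difference was -1.39 (standard error 0.36).

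**Figure D1:**
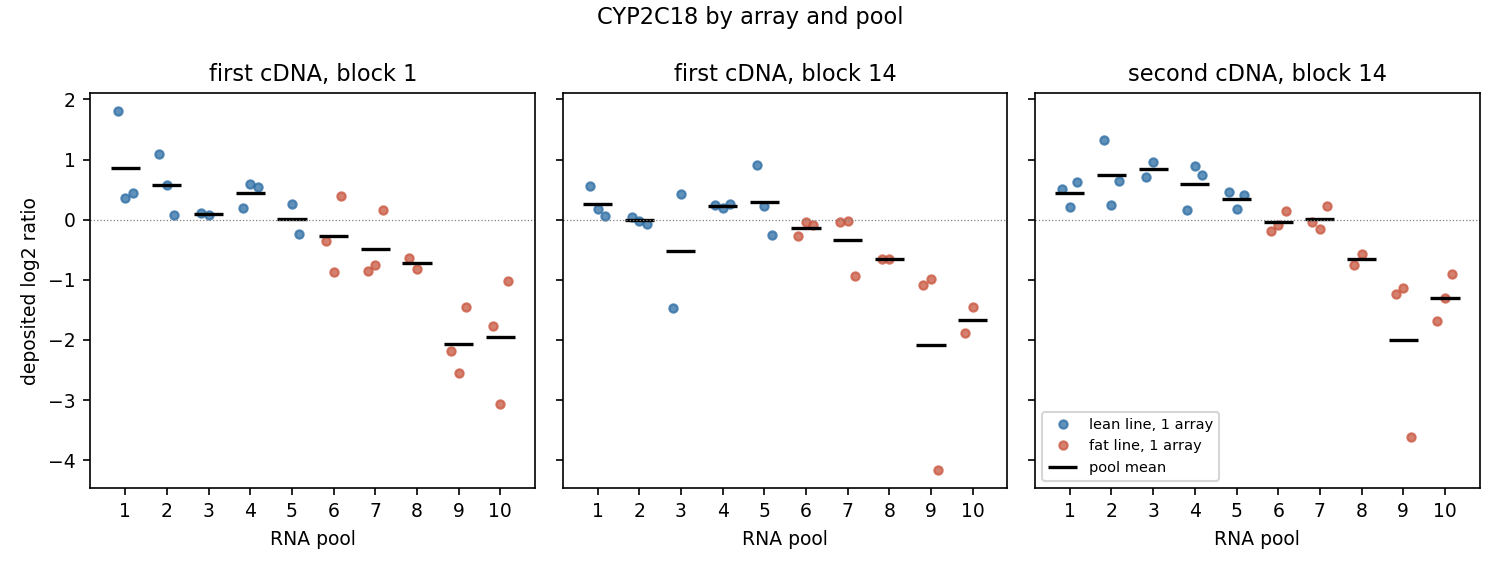
Deposited log2 ratio of CYP2C18 (vertical axis) in each RNA pool (horizontal axis) at its 3 printed positions. Points are single arrays, blue for the lean and red for the fat line, and black bars are pool means. Pools 9 and 10 have the lowest means at every position, and at the first cDNA in block 14 lean pool 3 overlaps the fat line.

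As background to the counts above, 0.862% of 232 clones measured in all pools had every fat pool below every lean pool: these were 2 clones, and both were CYP2C18. Lines that did not overlap in either direction made up 2.59%. Of 297 clones measured in 3 or more pools per line, limma with Benjamini-Hochberg adjustment called 0% at an adjusted p under 0.05, and 9.43% had an unadjusted p under 0.05 (28 clones, of which 13, or 4.38% of those tested, were lower in the fat line). Nothing is read from these shares for CYP2C18, since that contrast chose it. Over single arrays, averaged over positions, 13 of 14 fat arrays lay below 0, against 2 of 14 lean arrays. The fat arrays ran from -3.08 to 0.15 with a median of -0.68, and the lean arrays from -0.22 to 0.96 with a median of 0.32. Of the 14 lean arrays 12 lay above the highest fat array. Arrays of a pool hold the same RNA, and no share over other clones is given for these array counts. Nothing is read from them either.

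Leaving out each pool in turn moved the difference of the gene average between -1.51 (without pool 6) and -1.03 (without pool 9). The median of the other spots of block 1 was higher in the fat line by 0.125 and that of block 14 by 0.0722. In fat pools 6 to 10 the block 1 median was 0.06, 0.01, 0.04, -0.11 and -0.03, lowest in pools 9 and 10, and the block 14 median was highest in pool 9 (0.133). With the median of each block subtracted on every array the positions differed by -1.62, -1.04 and -1.40. The liver markers with values in all pools, APOB, GC, FABP1 and CFI (4 of the 8 listed), had a mean log2 ratio between 0.01 and 0.24 in the lean pools and between -0.03 and 0.30 in the fat pools. The differences of these gene means, each over the clones of a gene, ran from -0.25 (FABP1, a fatty acid binding protein of liver) to 0.17 (CFI, a complement factor). CFI was among the 2.59% of clones whose lines did not overlap, with every fat pool above every lean pool. Single clones ranged wider, from -0.46 to -0.03 over the 5 clones of FABP1 and at 0.49 and -0.26 for those of GC, a vitamin D carrier. With a value missing in 1 pool, AHSG (4 lean pools) differed by -0.30 and a single clone of APOA1 (4 fat pools) by 0.43. The other clones of APOA1 had too few values to be compared, and ALB had a value in no pool. Of 15 markers of blood, stromal, fat, gut and pancreas cells only the amylase AMY1A was named on the array (difference -0.10, standard error 0.18). In such bulk RNA fewer cells expressing a gene and less RNA per cell cannot be told apart.

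The size of the difference depended on which array of a pool was read. At the first cDNA in block 1 it was -1.96 on arrays numbered 1 in the labels, -1.98 on those numbered 2 and -0.69 on those numbered 3, which 8 pools had. In the fat line array 3 read higher than both other arrays of its pool in 4 of 4 pools: 0.39 in pool 6, 0.16 in pool 7, -1.45 in pool 9 and -1.02 in pool 10. In the lean line it did so in 0 of 4 pools. In block 14 the second cDNA did so in 3 of 4 fat and 1 of 4 lean pools, and the first cDNA in 0 of 3 fat and 1 of 4 lean pools. The first cDNA there differed by -0.85, -0.83 and -1.73 on arrays 1, 2 and 3, the last over 4 lean and 3 fat arrays. Those fat arrays read -0.09, -0.935 and -4.16 in pools 6, 7 and 9 (SD 2.15), so the -1.73 leaned on pool 9. The second cDNA differed by -1.41, -1.15 and -1.64. Its array 3 read -3.62 in pool 9, against 0.14, 0.22 and -0.90 in pools 6, 7 and 10. The labels do not say what arrays of the same number share, and reading the difference by array number was chosen after seeing the data.

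The next question was how far pools of the fat line, made of different chickens, differed from each other. In order of the gene average the pools ran from pool 9 (-2.04) through pool 10 (-1.64), pool 8 (-0.68), pool 7 (-0.27) and pool 6 (-0.15) to the lean pools 3 (0.14), 5 (0.22), 4 (0.42), 2 (0.44) and 1 (0.53). The array values of neighbouring pools overlapped in 7 of 9 neighbouring pairs. The exceptions were pool 8 against pool 10 and pool 8 against pool 7, and pool 8 had 2 arrays, which read -0.683 and -0.680. Pools 9 and 10 did not differ beyond the spread of their arrays, which ran from -3.08 to -1.50 in pool 9 and from -1.94 to -0.96 in pool 10. Neither did lean pools 1 to 5 in this order, nor pool 6 against pools 7 and 3. On the linear scale the ratio to the reference was 0.242 in pool 9 and 0.901 in pool 6, so the fat pools spanned a wider range than the lean pools, which lay between 1.10 and 1.44.

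Of the 202 clones measured on 2 or more arrays in each fat pool, the CYP2C18 positions had the highest SD between pool means: 0.86 for the second cDNA, 0.85 for the first in block 14 and 0.84 for the first in block 1. The other 199 clones had a median of 0.23 and a highest of 0.82. The error between arrays was high as well, with SDs of 0.70, 0.95 and 0.68 in the same order against a median of 0.28. In the limma F test between fat pools, adjusted over the 202 clones, none of the positions passed. The adjusted p was 0.163 for the first cDNA in block 1 and for the second cDNA (unadjusted p = 0.00621 and 0.00623), and 0.222 for the first cDNA in block 14. Without pool 9 the second cDNA passed (limma adjusted p = 0.0444). At an adjusted p under 0.05 the fat line had 0% of clones called, and 22.8% had an unadjusted p under 0.05 (46 clones). By p the positions ranked 5, 50 and 6 of 202 in the order of printing. In the lean line the positions ranked 54, 58 and 121 of 189 clones by SD between pools, their limma adjusted p-values lay between 0.530 and 0.699, 0.529% of clones were called (1 clone, GYS2) and 15.9% had an unadjusted p under 0.05. Of the variance of the gene average over arrays, an estimated 71.6% lay between pools in the fat line and 0% in the lean line. Estimates below 0 were set to 0, so the lean value does not show that the lean pools were equal. The background was taken for single positions only, with a median of 14.4% over the 189 clones in the lean line. For single positions in the fat line the share was 55.6%, 33.0% and 55.5% in the order of printing, against a median of 17.0% and a 90th percentile of 57.9% over the 202 clones.

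**Figure D2:**
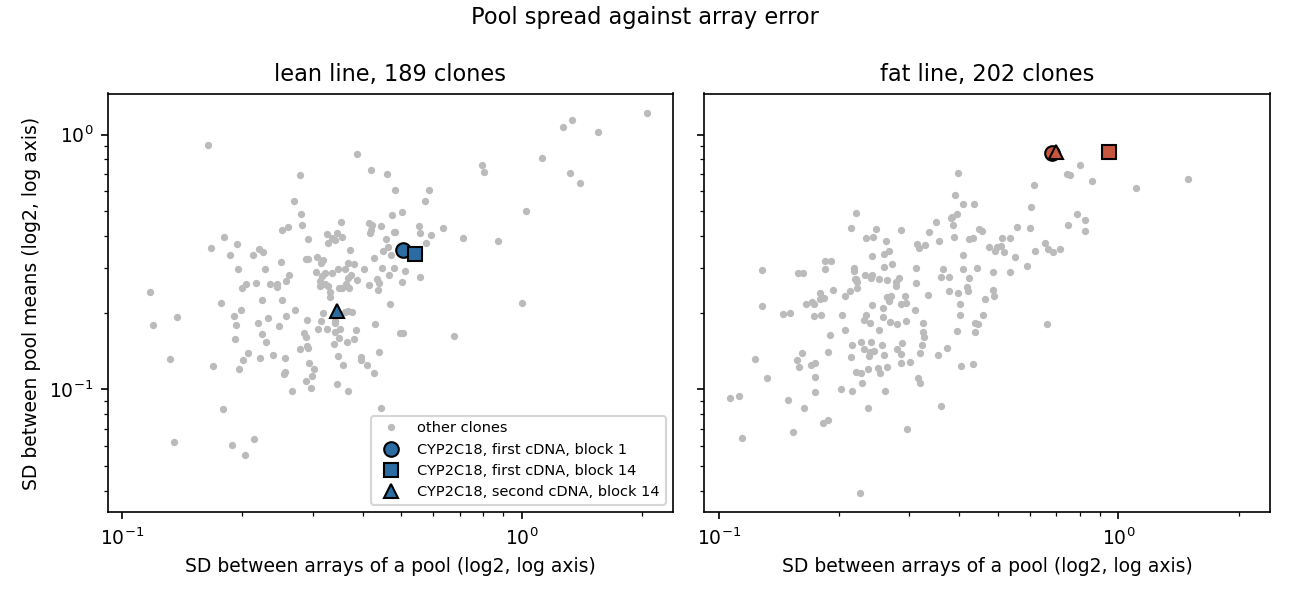
SD between pool means (vertical, log2, log axis) against SD between arrays of a pool (horizontal, log2, log axis) for each clone, in the lean line (189 clones) and the fat line (202 clones). Grey points are other clones and large marks the CYP2C18 positions, which in the fat line lie at the top of the cloud (0.84 to 0.86) and in the lean line within it (0.20 to 0.35).

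The spread itself was set between the lines by an exact permutation over the 10 pools of the absolute deviations from the line median. For the gene average the mean deviation was 0.65 in the fat line and 0.12 in the lean line, a difference of 0.53 (two-sided exact permutation p = 0.0556, n = 5 each). This missed the threshold of 0.05. With 5 pools in a line 1 pool is itself the median and has a deviation of 0. The smallest exact permutation p that this test could give was therefore 0.0476. With the deviations taken from the line mean the exact permutation p was 0.00794, so the call hung on that choice. It also passed after block medians were subtracted (exact permutation p = 0.0476), without pool 6, 7 or 8 (0.00794 each) and without pool 10 (0.0476). It did not pass without pool 9 (exact permutation p = 0.0714), without any one lean pool (0.0714 to 0.119) or without array 3 of pool 9 (0.0556). With 1 fat pool left out the fat median lay between pools, and an exact permutation p of 0.00794 could be reached. With 1 lean pool left out it could not. A pass in one of these settings and not in another therefore does not show which pools the result rested on. Over single positions the exact permutation p was 0.270 for the first cDNA in block 1, 0.159 for the same cDNA in block 14 and 0.0476 for the second cDNA, before adjustment, and the 3 share the same pools. Over all other clones pool 9 had the highest SD of the fat pools, 0.40, with 0.35 in pool 10 and between 0.31 and 0.36 in pools 6 to 8. In lean pools 1 to 5 this SD was 0.28, 0.41, 0.81, 0.37 and 0.42. The median absolute log2 ratio of pool 9, 0.213, was also the highest of the fat pools (0.123 to 0.193 in the others). In lean pools 1 to 5 it was 0.158, 0.207, 0.299, 0.178 and 0.173. The part of such differences in the result was not tested. The numbers of spots with a value per array, 647 and 632 on average in pools 9 and 10, lay within the range of the fat pools (589 to 727).

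The 3 positions ran together over pools of the fat line. In the lean line the positions of block 14 ran opposite to each other. Lean pool 3 was the lowest of its line for the first cDNA there (-0.52) and the highest for the second (0.84). Lean pool 5 was the highest for the first cDNA there (0.29) and the lowest for the second (0.35). With the line means removed, the pool values of the first cDNA in block 1 correlated with those of the same cDNA in block 14 at r = 0.903 and with the second cDNA at 0.848, and the positions in block 14 with each other at 0.812. These are descriptions over 10 pools that share arrays and RNA. The fat pools spread more widely than the lean pools at each position, so these r do not show agreement within the lean line. Over arrays the r was 0.606 (26 arrays), 0.753 (27 arrays) and 0.851 (27 arrays) for the same pairs. The largest gaps between positions of an array reached 2.71 on the log2 scale.

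Deviations of arrays from their pool mean told the positions apart. Between both printings of the first cDNA they gave r = -0.320, between the first cDNA in block 1 and the second cDNA -0.0542, and between the positions of block 14, which hold different cDNAs, 0.736. Array 3 of pool 9 moved each of these values, though the r between both printings of the first cDNA stayed negative without it. That array read -4.16 and -3.62 in block 14 and -1.45 in block 1, while arrays 1 and 2 of that pool read -1.09 and -0.98, then -1.24 and -1.13, and in block 1 -2.18 and -2.55. Without it, a setting chosen after seeing the data, the r of the deviations were -0.0969, 0.399 and 0.117. Over clones other than CYP2C18 that array correlated with the others of its pool at 0.193 and 0.166, near the median of 0.180 over the 26 pairs of arrays of a pool, while the other 2 correlated at 0.502. Without it the line difference was -1.56, -0.82 and -1.23 at the 3 positions and -1.20 for the gene average.

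**Figure D3:**
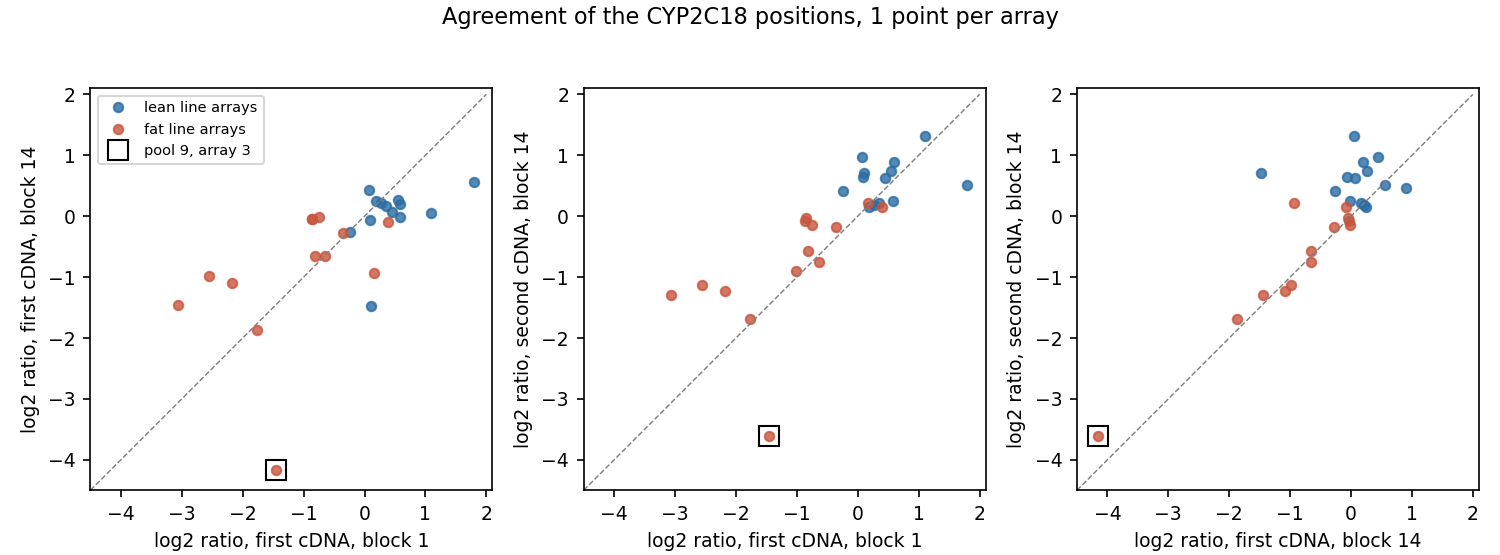
Log2 ratio of one CYP2C18 position against another, 1 point per array, blue for the lean and red for the fat line, with the line of equality dashed. The boxed array 3 of pool 9 reads -4.16 and -3.62 in block 14 and -1.45 in block 1, away from equality in the first and second panels.

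The last question was which named clones followed the pool values of CYP2C18. As the lines differed in the gene by its choice, each line's mean was first removed, and Pearson's r of the deviations was taken over the 10 pools with an exact permutation of pools within lines. Of 114 named clones measured in all pools (78 genes), 0% passed after Benjamini-Hochberg adjustment (smallest adjusted exact permutation p = 0.530), and 3.51% had an unadjusted p under 0.05 (4 clones, of PGK2, PYGL, APOB and LOC423629). By Spearman's rho 4 clones had an unadjusted p under 0.05 and 0 passed (smallest adjusted exact permutation p = 0.771). The r had a median of -0.110 and ran from -0.569 to 0.488 between the 5th and 95th percentiles. All clones share the arrays and the pooled RNA.

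The lowest r belonged to PGK2, a phosphoglycerate kinase of glycolysis, at -0.806 (rho -0.806, unadjusted exact permutation p = 0.00465, adjusted 0.530). Its log2 ratio in the fat line was -0.23, -0.07, 0.00, 0.33 and 0.29 in pools 6 to 10, and in the lean line 0.04, -0.25, 0.17, -0.29 and 0.08 in pools 1 to 5. It was thus higher in the fat pools where CYP2C18 was low. PGK2 itself differed by 0.12 between the lines (standard error 0.15). Without pools 9 and 10, which lay farthest from the median deviation of CYP2C18, its r was -0.621 (exact permutation p = 0.0778), and without pool 1 alone it passed at -0.839 (adjusted exact permutation p = 0.0396), as did LOC423629 at 0.573 (0.504 with all pools).

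PSPH, which makes serine from phosphoserine, had r = -0.779 (rho -0.770, adjusted exact permutation p = 0.939) and EEF1B2, a translation elongation factor, -0.650 (rho -0.527, adjusted exact permutation p = 0.939). Without pools 9 and 10 they stood at 0.408 and 0.0199, so these relations rested on that pair of pools. The highest were NR5A2, a nuclear receptor of liver that acts on bile acid genes, at 0.595 (rho 0.491), PYGL, the liver glycogen phosphorylase, at 0.564 (rho 0.673, unadjusted exact permutation p = 0.0191) and AvBD8, an avian beta-defensin, at 0.517 (rho 0.467), with adjusted exact permutation p-values of 0.939, 0.726 and 0.939. Without pools 9 and 10 they were at 0.194, 0.269 and 0.314. Another clone of AvBD8 was at 0.250 with all pools. Another clone of EEF1B2 was at -0.599 with all pools and at 0.866 without pools 9 and 10.

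**Figure D4:**
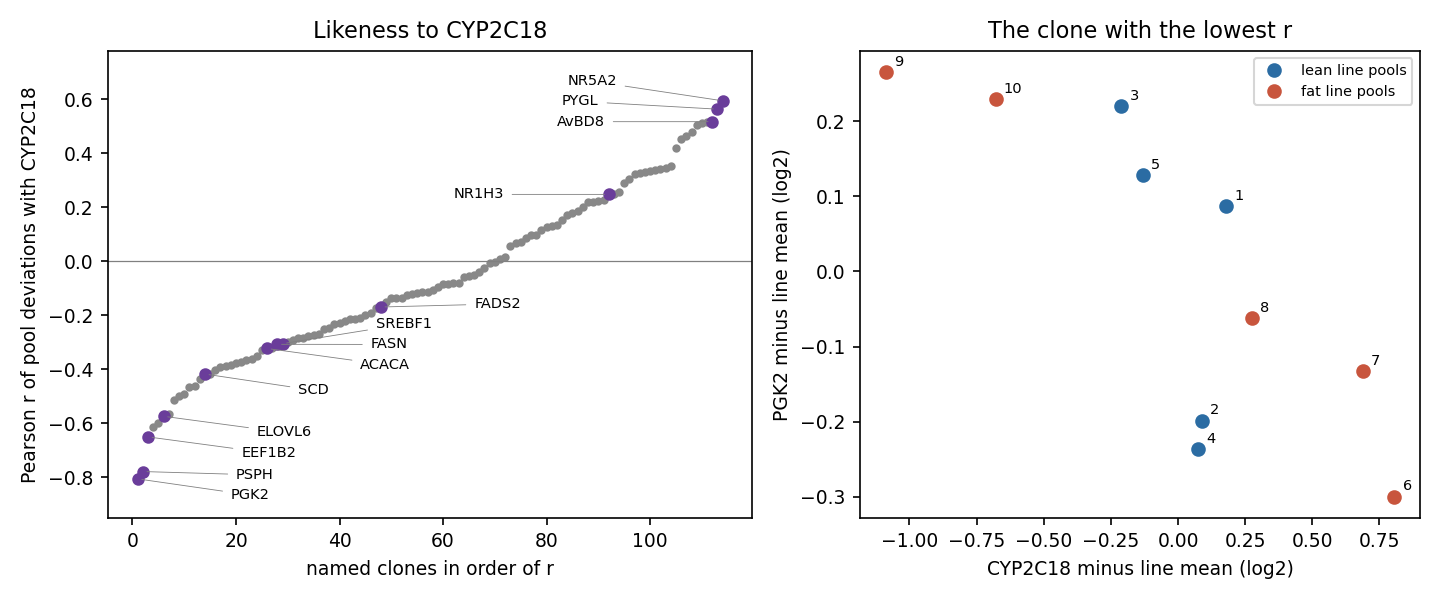
Left, Pearson r of pool deviations from the line mean between CYP2C18 and each of 114 named clones in ascending order, with the clones named in the text in purple. Right, the deviations of PGK2 against those of CYP2C18 (both log2, 1 numbered point per pool), where r is -0.806 and fat pools 9 and 10 lie at the upper left.

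Lipid synthesis genes were set against CYP2C18 within lines in the same way. For each gene the clone with the r of largest size is given, and an r below 0 was found for 70 of the 114 named clones. The lipid clones so chosen read higher in the fat line by 0.30 to 0.87 without passing limma (adjusted p from 0.239 to 0.631). Other clones of these genes differed by 0.50 (FASN), 0.89 (SCD), and 0.02 and 0.97 (SREBF1), also without passing. The last had values in 4 lean and 3 fat pools. The r of the chosen clones stood at -0.307 for FASN, which builds palmitate, -0.417 for SCD, a desaturase, -0.323 for ACACA, which makes malonyl-CoA, -0.305 for SREBF1, their regulator, -0.169 for FADS2, a desaturase, and -0.574 for ELOVL6, an elongase. Of these 6 genes 0 passed (adjusted exact permutation p = 0.939 each, unadjusted from 0.111 to 0.744), and the sign turned without pool 9 for ACACA (0.0123) and ELOVL6 (0.0237) and without pool 7 for FADS2 (0.182). Other clones, where measured in all pools, were at 0.220 (FASN), -0.393 (SCD) and -0.113 (SREBF1). In pools 6, 7 and 8 CYP2C18 read -0.15, -0.27 and -0.68. FASN read -0.23, 0.70 and 0.38 in these pools, highest in pool 7, and ACACA 0.12, 0.32 and 1.01. In pool 10, where CYP2C18 was at -1.64, ACACA was at 0.09. Without pools 9 and 10 the r was -0.811 for ACACA and -0.737 for SCD, and 0.0215 for SREBF1. For ACACA and SCD the unadjusted exact permutation p was 0.0625 and 0.0681, and the adjusted 0.584 for both. In that setting 0 of the 114 named clones passed, and clones of CAT and EEF1B2, not among these genes, reached -0.870 and 0.866.

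Other genes of the P450 system were thinly covered. Of 26 listed P450 partners, regulators and conjugation genes, 4 were named on the array, and no other cytochrome P450 was. NR1H3, an oxysterol receptor, had log2 ratios of 0.05 ± 0.46 (lean) and 0.15 ± 0.28 (fat; SD, n = 5 each). They differed by 0.10 (standard error 0.23), with r = 0.248 to CYP2C18 (rho 0.273, adjusted exact permutation p = 0.939). PPARA, a fatty acid receptor, differed by 0.69 with a standard error of 0.57 (4 fat pools had a value) and RXRG, a partner of such receptors, by 0.02 with a standard error of 0.75 (3 fat pools had one). In limma 0 of these 3 passed in either direction (adjusted p between 0.689 and 0.996). ALAS1, the first enzyme of haem synthesis, had a value in 1 fat pool and in no lean pool.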

How the data were processed

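Each spot of an array has 1 deposited log2 ratio, which the authors computed. How they scanned, filtered and normalized the arrays is not given in the sources used for this work. The base of the logarithm was taken from the largest value, 14.01, and array medians ran from -0.06 to 0.07. Per the labels' protocols, RNA of 4 chickens was pooled and 500 ng of poly(A)+ RNA labelled. Gene names came from the platform annotation. Sequences of the cDNAs were not used here. Spot intensities were not analysed here, so their part in the precision was not tested. The numbers of arrays and pools limit the precision.

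Members, lists and tests were chosen with earlier results of these data known. The 3 spots of a position were averaged, then the arrays of a pool, so that n is 5 pools per line. P-values of the line comparison, the spread test and likeness rest on differences between pools. limma 3.58.1 in R 4.3.3 was fitted on 297 clones measured in 3 or more pools per line. Pools of a line were compared by limma's F test on arrays, whose p-values set the pools against the error between arrays of a pool. The gene average had an ordinary standard error. Likeness used 14400 permutations of pools within lines. Named genes were the 3 with the highest and 3 with the lowest r (1 clone per gene) and genes listed by name. Other genes were named after their values were seen where a count of 5 or fewer was given. Fits were tested on simulated data. The labels do not say that arrays of the same number share anything. The number was used as a block in an alternative only, fitted on arrays with no term for the pool. Other alternatives were medians of spots or arrays, at least 2 spots per position, spots beyond 5 left out, single arrays, and quantile or block median normalization. Further ones were arrays as observations, clones with all pools, each pool left out, and pool 3 without its second array. Arrays numbered 3 alone, and leaving out array 3 of pool 9, were added after seeing the data.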

Additional observations from a re-analysis of the deposited data

Results flagged for a closer look

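Among 34 sets of 5 pools checked (CYP2C18 at its positions, its gene average, and the genes set against it, in each line), 1 held a pool far from the others. Chance gives about 1 in 20 sets, so this count was not above what chance gives. ELOVL6, an elongase of palmitate, stood at 0.60 in fat pool 9, the pool with the lowest CYP2C18, and the nearest other fat pool was at 0.03. Its r of -0.574 with CYP2C18 was 0.0237 without pool 9.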

How the results depend on the processing

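The line difference of CYP2C18 kept its sign at each position and in the gene average under every alternative run, and lay between -1.98 and -0.73 apart from arrays numbered 3 alone (-0.69 for the first cDNA in block 1, -1.73 for it in block 14). With single pools left out it ran from -1.70 to -1.26, from -1.23 to -0.75 and from -1.59 to -1.09 at the positions and from -1.51 to -1.03 on average. Taking the label's array number as a replicate block gave -1.59, -1.07 and -1.38. Of 297 clones limma called 8 with the replicate block (48 at an unadjusted p under 0.05), against 0 (28 unadjusted) on pool values. It called 5 with arrays as observations and the correlation within pools. The replicate block fit took arrays of a pool as independent, so its counts do not have the pool as the replicate. At an unadjusted p under 0.05 there were 18 on arrays numbered 3, and 18 to 30 with single pools left out, where 0 passed. The F test called 2 clones in the fat and 0 in the lean line with at least 2 spots per position. In the fat line the limma adjusted p was then 0.0586 for the first cDNA in block 1 and 0.122 for the second cDNA. The first cDNA in block 14 had too few values for that setting. With quantile normalization the limma adjusted p in the fat line was 0.222, 0.234 and 0.0502 at the 3 positions. With single pools left out the F test called 0 to 2 clones in the fat and 0 to 3 in the lean line. The adjusted p of the second cDNA was then between 0.0444 (without pool 9) and 0.246, that of the first between 0.131 and 0.226 in block 1 and between 0.0900 and 0.395 in block 14. Without array 3 of pool 9, an array left out because of its CYP2C18 values and so no support, 7 clones passed, among them the first and second cDNA in block 14 (limma adjusted p = 0.0442 and 0.00635). In the lean line these p-values lay between 0.475 and 0.867 with single pools left out. The difference in spread was 0.57 from the line mean (exact permutation p = 0.00794) and 0.55 after block medians (exact permutation p = 0.0476). With single pools left out it was 0.35 to 0.69 (exact permutation p from 0.00794 to 0.119), where the smallest p in reach depended on the line of the pool. Likeness passed for 0 clones under the alternatives, except 2 without pool 1 (0 to 2 over single pools left out). The r turned to 0.408 for PSPH, 0.0199 for EEF1B2 and 0.0215 for SREBF1 without pools 9 and 10, and ran from -0.460 to 0.182 for FADS2, -0.633 to 0.0123 for ACACA and -0.838 to 0.0237 for ELOVL6 with single pools left out. Without array 3 of pool 9 the r of array deviations was 0.399 between the first cDNA in block 1 and the second cDNA and 0.117 within block 14. Causes of these changes were not tested. The numbers of pools and arrays limit all of these values.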
